A study of Mus musculus with 35 samples.

Results

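The genes described here are the mouse Fc gamma receptors and the chain they signal through: Fcgr1, Fcgr2b, Fcgr3, Fcgr4 and Fcer1g. They were chosen by name, as the rows of the count table whose Ensembl identifier belongs to these symbols, and they are 5 of 53379 gene identifiers in the table. Libraries were made from female C57BL/6 mice with T110299 cells implanted in the pancreas, a tumor line from a genetically engineered mouse (altered p53 under Ptf1a-Cre). All groups shared this tumor. Treated mice received 50 µg of poly(I:C), a double-stranded RNA, complexed with polyethylenimine on days 18 and 20 after implantation; control mice received glucose, per the labels, and are called untreated. CD11b+ cells were sorted into PMN-MDSC (Ly6C low, Ly6G+) and M-MDSC (Ly6C high, Ly6G-) from spleen and tumor, giving 8 sorted groups, and 4 libraries came from whole (bulk) tumor of untreated mice. Groups held 4 libraries, except treated spleen PMN-MDSC and treated tumor M-MDSC with 3 each. The libraries came from 8 mice, 4 of them treated, so groups share animals. The control injection differs from the treatment in both the RNA and its carrier, which cannot be told apart in these groups, and the tumor is a single cell line.

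Fc gamma receptors bind the constant part of IgG and connect antibodies to phagocytosis, cytokine release and killing by myeloid cells. In the mouse, Fcgr1 encodes the high-affinity receptor, Fcgr3 a low-affinity receptor and Fcgr4 a receptor of intermediate affinity for IgG2 subclasses. All of these are activating and are assembled with the common gamma chain encoded by Fcer1g, whose tyrosine motif recruits the kinase Syk. Fcgr2b encodes the inhibitory receptor, whose cytoplasmic motif recruits the phosphatase SHIP1, so that the balance of activating and inhibitory receptors sets how a cell responds to immune complexes. Interferons are known inducers of several of the activating receptors in myeloid cells.

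Fcgr2b (ENSMUSG00000026656.15, chr1:170958617-170976547, minus strand), Fcgr4 (ENSMUSG00000059089.4, chr1:171018920-171029761, plus strand), Fcgr3 (ENSMUSG00000059498.13, chr1:171051174-171064935, minus strand) and Fcer1g (ENSMUSG00000058715.11, chr1:171229572-171234365, minus strand) lie in a single stretch of chromosome 1 (GRCm38). Fcgr1 (ENSMUSG00000015947.10, chr3:96282909-96293969, minus strand) lies on chromosome 3. Fcgr2b, Fcgr3 and Fcgr4 are related in sequence, so their split of reads is uncertain where the mapping could not separate them. Fcgr2b also overlaps an antisense gene, Gm38204, on the opposite strand, and the counting used strand. Fcgr3 overlaps the microRNA gene Mir6546 and Fcgr4 the snRNA gene Gm26110, both on the same strand, which strand cannot separate. Promoter sequences from RefSeq (GRCm38.p6, 250 bases before to 50 after the annotated start) were found for all 5 genes, with 2 starts for Fcgr3. They are shown for the 3 receptors whose counts moved most with treatment, with every match in capitals. The searched letters were TTCNNNGAA (GAS, bound by STAT dimers), the core of the interferon-stimulated response element (ISRE, GAAA repeated after any 2 bases) and GAGGAA (PU box, bound by PU.1), on both strands.
Fcgr1 promoter, chr3:96293920-96294219, minus strand: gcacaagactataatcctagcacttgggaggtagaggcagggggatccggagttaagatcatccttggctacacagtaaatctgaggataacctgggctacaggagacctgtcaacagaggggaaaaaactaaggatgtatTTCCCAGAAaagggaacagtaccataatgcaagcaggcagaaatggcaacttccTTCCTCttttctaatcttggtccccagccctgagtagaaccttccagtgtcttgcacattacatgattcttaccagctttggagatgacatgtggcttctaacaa
Fcgr4 promoter, chr1:171018676-171018975, plus strand: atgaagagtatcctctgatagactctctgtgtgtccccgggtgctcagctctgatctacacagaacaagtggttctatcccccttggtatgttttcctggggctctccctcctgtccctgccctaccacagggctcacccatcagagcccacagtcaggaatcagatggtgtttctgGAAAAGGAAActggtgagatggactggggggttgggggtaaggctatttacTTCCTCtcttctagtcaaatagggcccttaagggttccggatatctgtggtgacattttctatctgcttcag
Fcgr2b promoter, chr1:170976022-170976321, minus strand: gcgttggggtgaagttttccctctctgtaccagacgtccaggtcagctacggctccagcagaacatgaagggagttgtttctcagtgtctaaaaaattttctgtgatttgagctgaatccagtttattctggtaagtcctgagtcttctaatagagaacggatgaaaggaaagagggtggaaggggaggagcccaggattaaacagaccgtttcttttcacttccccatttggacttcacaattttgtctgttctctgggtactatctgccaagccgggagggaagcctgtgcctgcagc
The Fcgr1 promoter held a GAS match, TTCCCAGAA, whose first base lies 109 bases before the start and whose letters match the motif on both strands, and a PU box on the opposite strand 55 bases before it. The Fcgr4 promoter held an ISRE core, GAAAAGGAAA, 73 bases before the start and a PU box on the opposite strand 22 bases before it. Both Fcgr3 promoters held the same PU box. The Fcgr2b and Fcer1g promoters held 0 matches. Among 32851 RefSeq promoters of the same length, GAS letters occurred in 8.30%, the ISRE core in 3.44% and the PU box in 28.3%. A match describes letters in this window and not binding.

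Library totals ran from 793070 to 4357105 counts in sorted cells and from 3771590 to 8886115 in bulk tumor. A member's smallest count in any library was 23. Levels are in CPM, counts scaled to a common library total. A library of treated tumor M-MDSC held 2.71 CPM of Ly6c2, which encodes a sorted antigen, against 409 to 587 in the other 2, and 1994 of the macrophage gene C1qa against 359 to 888. A library of treated spleen M-MDSC held 11550 CPM of Ighm, an antibody heavy chain, against 105 to 354. A library of untreated spleen PMN-MDSC held 239.8 CPM of the monocyte gene Ccr2, against 44.6 to 73.0. Ly6g was at 0 to 8.99 CPM in untreated tumor PMN-MDSC, where it should mark the cells, and the 9 macrophage markers summed to 10497 to 13798 CPM there. Results that rest on these libraries are given with and without them where a call changed.

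**Figure D1:**
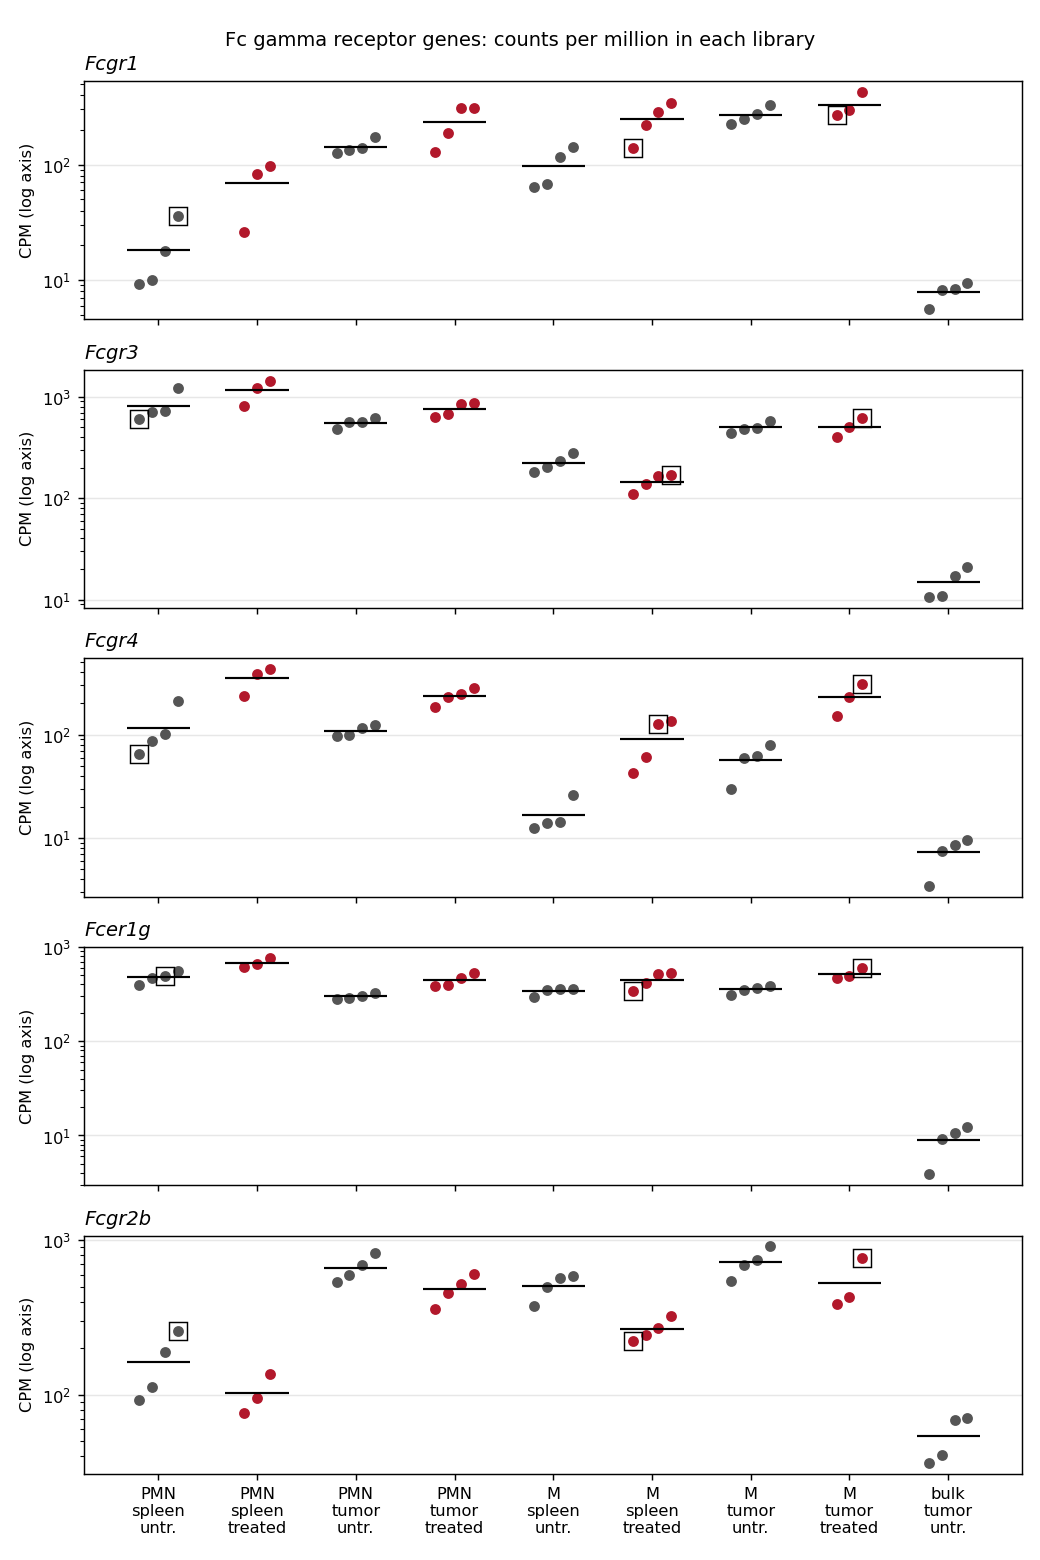
CPM (counts scaled to a common library total with TMM factors over all libraries, log axis) of each gene in each library, by group; red points are treated and gray points untreated libraries, black lines are group means, and squares mark the 3 libraries that stand apart. Bulk tumor has the lowest mean for each gene, and treated points of Fcgr4 sit above the untreated points of the same cells in all 4 pairs of groups.

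Per kilobase of exon, Fcer1g was the most abundant member in all 9 groups, and Fcgr3 came next in all except treated spleen M-MDSC and bulk tumor. In untreated spleen PMN-MDSC, the mean FPKM (CPM divided by kilobases of exon) were 549 ± 75.7 for Fcer1g, 471 ± 157 for Fcgr3, 92.6 ± 51.9 for Fcgr4, 28.3 ± 13.3 for Fcgr2b and 7.08 ± 4.82 for Fcgr1 (SD, n = 4). Untreated spleen M-MDSC had another order, with 389 ± 36.6 FPKM of Fcer1g, 129 ± 24.4 of Fcgr3, 87.8 ± 16.7 of Fcgr2b, 37.6 ± 14.5 of Fcgr1 and 13.3 ± 4.92 of Fcgr4 (SD, n = 4). In those M-MDSC the inhibitory receptor stood above Fcgr1 and Fcgr4 per length, whereas in PMN-MDSC it stood below Fcgr4. The lengths are summed over all annotated exons, so genes with many transcripts, such as Fcgr2b at 5790 bases, have low FPKM for their counts.

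The order of the groups by mean CPM differed from gene to gene. Fcgr1 ran from 331 CPM in treated tumor M-MDSC down to 18.3 in untreated spleen PMN-MDSC and 7.93 in bulk tumor, and every neighboring pair in that order overlapped. Fcgr2b was highest in untreated tumor M-MDSC (722) and untreated tumor PMN-MDSC (661), which overlapped, and lowest among sorted cells in treated spleen PMN-MDSC (102). Its order had gaps between treated tumor PMN-MDSC (485) and treated spleen M-MDSC (266), and between treated spleen PMN-MDSC and bulk tumor. Fcgr3 was highest in treated and untreated spleen PMN-MDSC (1158 and 818, overlapping) and lowest among sorted cells in treated spleen M-MDSC (146), below every library of untreated spleen M-MDSC (224). Fcgr4 ran from 349.7 CPM in treated spleen PMN-MDSC to 16.7 in untreated spleen M-MDSC, which lay below every library of untreated tumor M-MDSC (57.5). Fcer1g varied least, from 679 CPM in treated spleen PMN-MDSC, above all other groups, to 299 in untreated tumor PMN-MDSC. Across sorted groups the highest mean exceeded the lowest 18.1-fold for Fcgr1, 20.9-fold for Fcgr4, 7.95-fold for Fcgr3, 7.06-fold for Fcgr2b and 2.27-fold for Fcer1g.

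Whether treatment changed the receptors was asked in each sorted population. Fcgr4 rose in all 4 populations, by 2.13-fold to 5.39-fold, and it was the only member called in 3 of them. In spleen M-MDSC Fcgr1 rose too, while the inhibitory Fcgr2b and the activating Fcgr3 fell. In all, 7 of 20 member comparisons passed an adjusted p of 0.05 (edgeR quasi-likelihood test, adjusted over all genes tested). In spleen PMN-MDSC 1 of 5 members was called, in spleen M-MDSC 4, in tumor PMN-MDSC 1 and in tumor M-MDSC 1, where 11.6%, 19.6%, 3.36% and 2.88% of all genes tested were called. Libraries of treated and untreated mice did not overlap for 2, 3, 3 and 2 members, against 24.9%, 25.1%, 12.1% and 19.4% of all genes. Stricter limits, an adjusted p under 0.001 and at least 2-fold, were passed by 0 of 20 (edgeR; 14 had an unadjusted p under 0.05), and by 0.0413%, 2.47%, 0.241% and 0.012% of all genes. As whole populations were sequenced, a shift in which cells were sorted and a change in RNA per cell cannot be told apart.

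Fcgr4, the activating receptor with the ISRE core letters in its promoter, held 12.7, 13.9, 14.5 and 25.96 CPM in untreated spleen M-MDSC and 42.2, 60.9, 127 and 135 CPM after treatment. All treated libraries were above all untreated ones, and the change was 2.43 ± 0.42 on the log2 scale (SE; edgeR, adjusted p = 0.0040). In tumor M-MDSC Fcgr4 held 29.5, 59.1, 62.0 and 79.4 CPM untreated and 149.7, 233 and 308 CPM treated. These groups did not overlap either, with a log2 fold change of 1.97 ± 0.33 (SE; edgeR, adjusted p = 0.021). The highest treated value came from the library with almost no Ly6c2; without it the log2 fold change was 1.69 (edgeR, adjusted p = 0.021) and stayed called. In tumor PMN-MDSC Fcgr4 rose from 97.8, 99.3, 115 and 123 CPM to 183, 231, 246 and 279.9 CPM. The spread within both groups was small, and the log2 fold change was 1.09 ± 0.17 (SE; edgeR, adjusted p = 0.0056). Fitting all libraries together left 1.11 with an adjusted p of 0.0807 in edgeR, which ends this call. In spleen PMN-MDSC Fcgr4 rose from 65.5, 86.6, 102 and 212 CPM to 234, 386 and 429 CPM. The highest untreated library lay just under the lowest treated one, with a log2 fold change of 1.66 ± 0.36 (SE; edgeR, adjusted p = 0.023). Without the untreated library rich in Ccr2 the change was 1.46 with an adjusted p of 0.059 in edgeR, and the call was lost in 5 of 7 fits that left out 1 library: that one, either untreated library at 86.6 or 102 CPM, or either treated library at 386 or 429 CPM (edgeR, highest adjusted p = 0.084). In tumor M-MDSC it was lost in 4 of 7 such fits, without an untreated library at 59.1, 62.0 or 79.4 CPM or the treated one at 233 CPM (edgeR, highest adjusted p = 0.078), and in spleen M-MDSC and tumor PMN-MDSC in 0 of 8.

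Fcgr1, the high-affinity receptor with the GAS letters, rose in spleen M-MDSC from 64.2, 67.7, 116 and 141 CPM to 140.2, 219.6, 284 and 341 CPM. The lowest treated library, the one rich in Ighm, lay at the level of the highest untreated one. The log2 fold change was 1.31 ± 0.31 (SE; edgeR, adjusted p = 0.018), and leaving out 1 library lost the call in 3 of 8 fits, without the untreated ones at 64.2 or 67.7 CPM or the treated one at 341 CPM (edgeR, highest adjusted p = 0.059). Without a filter on low counts its adjusted p was 0.0992 in edgeR. In spleen PMN-MDSC Fcgr1 was far lower, at 9.28, 9.97, 18.0 and 36.1 CPM untreated and 26.2, 82.4 and 97.1 CPM treated. The groups overlapped only through the untreated library rich in Ccr2, which held 36.1 CPM, and the log2 fold change of 1.88 ± 0.57 (SE) missed the threshold (edgeR, adjusted p = 0.069). Without that library it was 2.55 with an adjusted p of 0.029 in edgeR, without the treated one at 26.2 CPM 2.25 with 0.032, and DESeq2 also called it (adjusted p = 0.014), as did edgeR without a filter and in the fit of all libraries (adjusted p = 1.3e-07 and 0.0012). DESeq2 and those edgeR fits use the same libraries, so they are no separate support. The unfiltered log2 fold change was 1.94, close to the 1.88 with the filter, so mainly the p-value moved. In tumor the differences were smaller, at 0.68 ± 0.27 in PMN-MDSC and 0.29 ± 0.22 in M-MDSC on the log2 scale (SE; edgeR, adjusted p = 0.22 and 0.53), and without a filter on low counts the former was 0.73 and called (edgeR, adjusted p = 0.0191). With the filter, the difference in effect between spleen and tumor was not called in PMN-MDSC or M-MDSC (edgeR, adjusted p = 0.37 and 0.28). Untreated tumor cells held 126 to 175 CPM of Fcgr1 in PMN-MDSC and 223 to 328 in M-MDSC.

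The effect on Fcgr3 differed between the 2 spleen populations. In spleen M-MDSC it fell from 182, 202, 232 and 279 CPM to 111, 137, 165 and 171 CPM, a log2 fold change of -0.64 ± 0.19 (SE; edgeR, adjusted p = 0.038). The groups did not overlap, but the call was lost in 6 of 8 fits that left out 1 library (all but those without the untreated one at 182 CPM or the treated one at 171 CPM; edgeR, highest adjusted p = 0.085) and in the fit of all libraries together (edgeR, adjusted p = 0.0796). In spleen PMN-MDSC it stood at 607, 714, 732 and 1219 CPM untreated and at 809, 1218 and 1448 CPM treated. These overlapped, with a log2 fold change of 0.55 ± 0.27 (SE; edgeR, adjusted p = 0.22). The difference between the effects in M-MDSC and PMN-MDSC was itself tested and was -1.29 ± 0.33 on the log2 scale (SE; edgeR, adjusted p = 0.023), where 10.9% of genes were called (0.119% under the stricter limits, and 0 members). With at least 10 counts required in every library it was -1.04 with an adjusted p of 0.060 in edgeR, and 3 of 15 fits without 1 library lost it, those without the untreated PMN-MDSC library at 732 CPM or the treated ones at 1218 and 1448 CPM (edgeR, highest adjusted p = 0.085). In tumor PMN-MDSC treated libraries held 631 to 877 CPM and untreated ones 486 to 617, with no overlap and a log2 fold change of 0.42 ± 0.18 (SE; edgeR, adjusted p = 0.24). Tumor M-MDSC held 435 to 581 CPM untreated and 399 to 615 treated.

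Fcer1g, the shared signaling chain, was 0.38 to 0.55 higher on the log2 scale in treated cells of each population and was called in none by edgeR (adjusted p = 0.10 to 0.15, all 4 with an unadjusted p under 0.05). Treated spleen PMN-MDSC held 609, 659.6 and 768 CPM against 395, 473, 497 and 555 untreated, with no overlap. In tumor PMN-MDSC the values were 384 to 525 CPM against 282 to 323, and in tumor M-MDSC 472 to 596 against 309 to 386, again apart. DESeq2 called these 3 (adjusted p = 0.023, 0.018 and 0.027). In spleen M-MDSC treated libraries held 342 to 533 CPM and untreated ones 292 to 359; without the library rich in Ighm, which held the 342, the change was 0.50 with an adjusted p of 0.025 in edgeR.

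Fcgr2b, the inhibitory receptor, fell in spleen M-MDSC from 375, 499, 571 and 588 CPM to 222, 245, 270.1 and 325 CPM. All treated libraries were below all untreated ones, and the log2 fold change was -0.97 ± 0.17 (SE; edgeR, adjusted p = 0.0038). It was called in all 8 fits that left out 1 library. The library rich in Ighm held the lowest value, 222 CPM. In the other populations Fcgr2b was lower after treatment without passing the test, by a log2 fold change of -0.67 ± 0.41 in spleen PMN-MDSC, -0.47 ± 0.22 in tumor PMN-MDSC and -0.45 ± 0.29 in tumor M-MDSC (SE; edgeR, adjusted p = 0.34, 0.28 and 0.45). Tumor PMN-MDSC held 534 to 822 CPM untreated and 359 to 601 treated. In tumor M-MDSC the treated values were 386, 432 and 771 CPM, the last from the library with almost no Ly6c2, against 542 to 913 untreated.

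Differences in the treatment effect between spleen and tumor were called for 0 of 5 members in PMN-MDSC and 0 of 5 in M-MDSC (edgeR, with 3.5% and 0.79% of genes called, and 0% and 0.0115% under the stricter limits; 0 and 2 members at an unadjusted p under 0.05; DESeq2 also called 0 and 0). Between M-MDSC and PMN-MDSC of the tumor 0 of 5 were called (0.0239% of genes, and 0% under the stricter limits; 1 at an unadjusted p under 0.05; DESeq2 called 0). The estimate for Fcgr1 in M-MDSC was 0.996 ± 0.415 higher in spleen than in tumor on the log2 scale (SE; edgeR, adjusted p = 0.28), and without a filter on low counts it was 1.02 and called (edgeR, adjusted p = 0.0489).

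**Figure D2:**
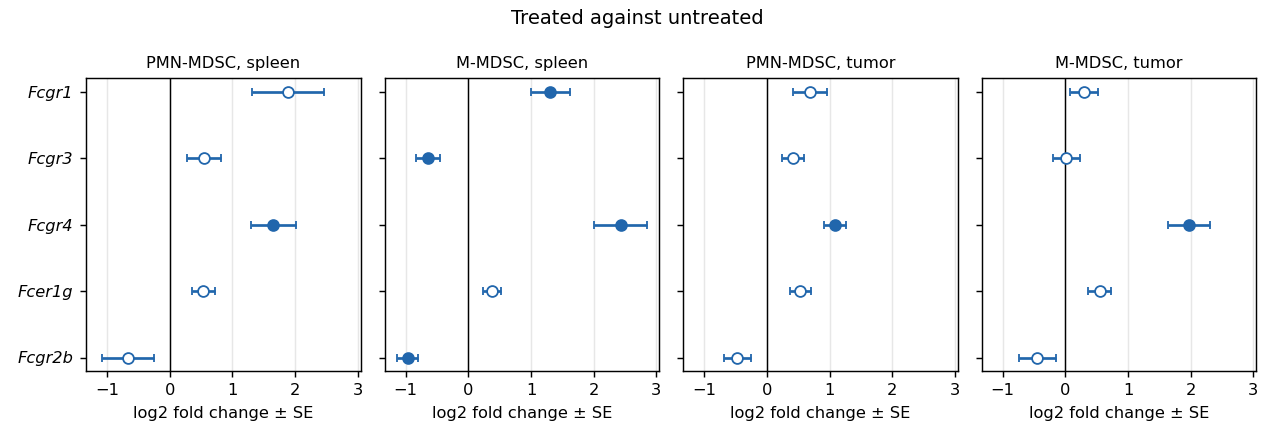
Log2 fold change (treated over untreated, edgeR) of each gene in the 4 sorted populations, with bars of 1 SE; filled points passed an adjusted p of 0.05 and open points did not. Fcgr4 is filled in all 4 panels, between 1.09 and 2.43, and Fcgr2b lies left of 0 in each, filled in spleen M-MDSC.

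Markers of cell identity moved with treatment beside these genes. In spleen PMN-MDSC 4 of 9 neutrophil markers rose and 8 of 9 macrophage markers fell. Their summed levels went from 20110 to 36814 CPM up to 41397 to 75328 for neutrophil markers, and from 595 to 1716 CPM down to 178 to 291 for macrophage markers, none of which was at 0 in every library. In spleen M-MDSC 3 macrophage markers rose and 2 fell, and their sum was 813 to 1122 CPM untreated and 502 to 821 treated. The neutrophil markers, with 0 of 7 tested called by edgeR there, had a median log2 fold change of -0.57 and summed to 2257 to 5043 CPM untreated and 727 to 3445 treated. In tumor cells 0 of 9 macrophage and 0 neutrophil markers were called. The neutrophil sum in tumor PMN-MDSC was 998 to 3819 CPM untreated and 3165 to 10511 treated. The macrophage sum in tumor M-MDSC was 4253 to 8864 CPM untreated, 5663 and 11015 in 2 treated libraries and 27337 in the treated one with almost no Ly6c2. Of 8 monocyte markers, 2 rose and 4 fell in spleen PMN-MDSC, 2 rose and 2 fell in spleen M-MDSC, 2 rose and 1 fell in tumor PMN-MDSC and 0 were called in tumor M-MDSC. Their sum in tumor M-MDSC was nevertheless apart, at 4763 to 6118 CPM untreated and 2271 to 3714 treated, or 2784 and 3714 without the library with almost no Ly6c2. Of 5 red pulp macrophage markers, 1 fell in spleen PMN-MDSC and 1 rose in each other population. Their sum was higher after treatment and without overlap in the latter 3, from 189 to 309 up to 460 to 880 CPM in spleen M-MDSC, 537 to 733 up to 828 to 1377 in tumor PMN-MDSC and 276 to 412 up to 825 to 1473 in tumor M-MDSC. In spleen PMN-MDSC the 1 dendritic cell marker tested and both erythroid markers tested fell, and in spleen M-MDSC the 1 erythroid marker tested fell. In tumor M-MDSC the 6 dendritic cell markers, 1 of them tested and not called, summed to 76.6 to 118 CPM untreated and 143 to 579 treated, or 143 to 205 without the library with almost no Ly6c2. Of 6 patrolling monocyte markers, 2 fell in spleen PMN-MDSC, 3 rose and 1 fell in spleen M-MDSC, 1 rose in tumor PMN-MDSC and 2 rose in tumor M-MDSC. Their sum was no higher after treatment, at 481 to 724 CPM untreated and 355 to 461 treated in spleen PMN-MDSC, 1015 to 1666 and 694 to 1603 in spleen M-MDSC, 1401 to 1983 and 858 to 1281 in tumor PMN-MDSC, and 1057 to 1759 and 801 to 1257 in tumor M-MDSC. The part of these shifts in the receptor values was not tested. Of 10 interferon-stimulated reference genes, 9 rose in spleen PMN-MDSC, 10 in spleen M-MDSC, 9 in tumor PMN-MDSC and 4 in tumor M-MDSC, and 0 fell. In tumor M-MDSC Irf7 rose by 3.01 ± 0.28 on the log2 scale (SE; edgeR, adjusted p = 0.0022).

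The ratio of activating to inhibitory receptor transcripts, as the log2 ratio of FPKM in each library, shifted toward the activating genes. In spleen M-MDSC Fcgr4 to Fcgr2b was -3.27, -3.10, -2.85 and -1.63 untreated and -0.73, 0.05, 1.33 and 1.39 treated. All treated libraries were above the untreated ones, by 3.22 in the mean. The same ratio shifted by 2.50 in tumor M-MDSC, 2.27 in spleen PMN-MDSC and 1.55 in tumor PMN-MDSC, and in each case the libraries did not overlap. Fcgr1 to Fcgr2b shifted by 2.42 in spleen PMN-MDSC, 2.26 in spleen M-MDSC and 1.07 in tumor PMN-MDSC, without overlap, and by 0.77 in tumor M-MDSC, with overlap. Fcgr3 to Fcgr2b shifted by 1.10 in spleen PMN-MDSC, 0.89 in tumor PMN-MDSC, 0.50 in tumor M-MDSC and 0.30 in spleen M-MDSC, and only tumor PMN-MDSC had no overlap. These ratios are built from members already described, so no test was made of them. The zero of this scale depends on the summed exon lengths, whereas the shifts hardly do.

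**Figure D3:**
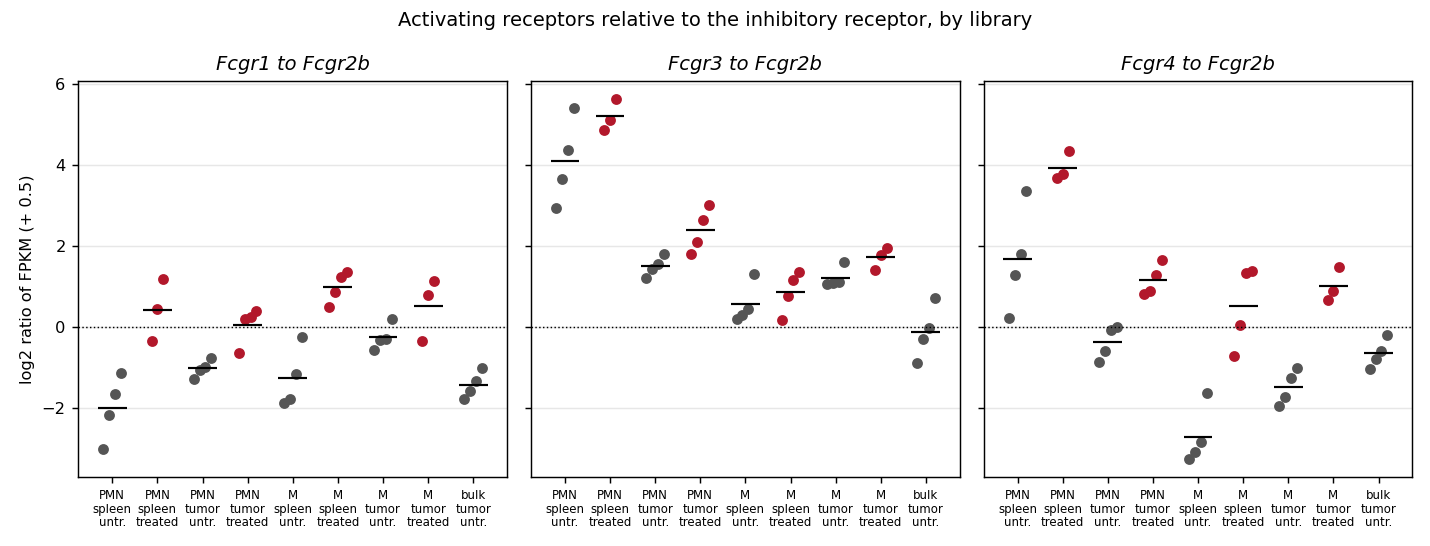
Log2 ratio of FPKM (each with 0.5 added) of Fcgr1, Fcgr3 and Fcgr4 to the inhibitory Fcgr2b in each library; red points are treated, gray points untreated, lines are group means and the dotted line is an equal level per exon length. For Fcgr4 the means went from -2.71 to 0.51 in spleen M-MDSC and from 1.67 to 3.93 in spleen PMN-MDSC.

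Members also differed between tumor and spleen cells of the same sort. In untreated PMN-MDSC, Fcgr1 and Fcgr2b were higher in tumor and Fcer1g was lower. In untreated M-MDSC, the activating Fcgr1, Fcgr3 and Fcgr4 were higher in tumor. That made 3 of 5 members called in each, where 59.1% and 28.4% of all genes were called, so for PMN-MDSC the count is at the background. The stricter limits were passed by 2 and 3 members, and by 21.7% and 8.6% of genes. In untreated PMN-MDSC Fcgr1 held 9.28 to 36.1 CPM in spleen and 126 to 175 in tumor, with a log2 fold change of 3.09 ± 0.40 (SE; edgeR, adjusted p = 0.00012), or 3.78 without the spleen library rich in Ccr2, which held the 36.1. Fcgr2b held 92.1 to 261 CPM in spleen and 534 to 822 in tumor, with 2.16 ± 0.34 (SE; edgeR, adjusted p = 0.00034). Fcer1g was lower in tumor by a log2 fold change of -0.51 ± 0.16 (SE; edgeR, adjusted p = 0.019; 0.055 when scaled to library totals, and lost in 3 of 8 fits, without the tumor library at 282, 289 or 304 CPM). Both groups were apart for these 3 genes, as were 55.1% of all genes. Fcgr3 and Fcgr4 had log2 fold changes of -0.38 ± 0.22 and 0.09 ± 0.30 (SE; edgeR, adjusted p = 0.16 and 0.82), and without the spleen library at 212 CPM Fcgr4 was 0.55 higher in tumor with an adjusted p of 0.022. The fit of all libraries called Fcgr3 lower in tumor (-0.55; edgeR, adjusted p = 0.040). The macrophage markers summed to 595 to 1716 CPM in spleen and 10497 to 13798 in tumor. The neutrophil markers summed to 20110 to 36814 CPM in spleen and 998 to 3819 in tumor. The part of both lists in these values was not tested.

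In untreated M-MDSC Fcgr4 held 12.7 to 25.96 CPM in spleen and 29.5 to 79.4 in tumor, a log2 fold change of 1.84 ± 0.29 (SE; edgeR, adjusted p = 0.00055). Fcgr1 rose from 64.2 to 141 CPM in spleen to 223 to 328 in tumor, by 1.48 ± 0.24 (SE; edgeR, adjusted p = 0.00082). Fcgr3 held 182 to 279 CPM in spleen and 435 to 581 in tumor, a log2 fold change of 1.15 ± 0.15 (SE; edgeR, adjusted p = 0.00016). All 3 were apart, against 31.4% of genes, and were called in all 8 fits without 1 library. Fcgr2b was 0.50 ± 0.19 higher (SE; edgeR, adjusted p = 0.062; DESeq2, adjusted p = 0.0494; edgeR without a filter, adjusted p = 0.0069; 0.62 with an adjusted p of 0.013 in edgeR without the tumor library at 542 CPM), and Fcer1g was 0.06 ± 0.12 higher. The macrophage markers summed to 813 to 1122 CPM in spleen and 4253 to 8864 in tumor, the neutrophil markers to 2257 to 5043 and 222 to 549.7, and the monocyte markers to 3050 to 4109 and 4763 to 6118. The part of these lists was not tested.

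After treatment, 2 members were called between tumor and spleen in PMN-MDSC (53.6% of genes called) and 1 in M-MDSC (5.87%), and 1 and 0 passed the stricter limits (13% and 0.188%). The groups were apart for 3 members in each, against 57.3% and 21.8% of genes. In PMN-MDSC these were Fcgr1, 1.91 ± 0.47 higher in tumor, and Fcgr2b, 2.38 ± 0.30 higher on the log2 scale (SE; edgeR, adjusted p = 0.0093 and 0.00039). In M-MDSC Fcgr3 was 1.80 ± 0.24 higher in tumor (SE; edgeR, adjusted p = 0.0051). Fcgr2b and Fcgr4 were 1.004 ± 0.281 and 1.34 ± 0.44 higher there and missed the threshold (SE; edgeR, adjusted p = 0.079 and 0.12), though DESeq2 called both (adjusted p = 0.010 and 0.034), as did edgeR without a filter (adjusted p = 0.0035 and 3.8e-06) and in the fit of all libraries (adjusted p = 0.023 and 0.014). Those fits use the same libraries and are no separate support. The unfiltered log2 fold changes were 0.99 and 1.33, so mainly the p-values moved. Fcgr1, which had differed between the compartments in untreated M-MDSC, differed by 0.43 ± 0.31 in treated ones (SE; edgeR, adjusted p = 0.44). The change of that difference with treatment was called for Fcgr1 in M-MDSC without a filter on low counts and otherwise not, as stated for the treatment effect. In PMN-MDSC Fcgr4 had a log2 fold change of -0.43 ± 0.25 (SE; edgeR, adjusted p = 0.17), or -0.65 with an adjusted p of 0.046 in edgeR without the spleen library at 234 CPM. The fit of all libraries also called Fcgr3 and Fcer1g lower in tumor PMN-MDSC (-0.60 and -0.61; edgeR, adjusted p = 0.035 and 0.017). The macrophage markers of treated cells summed to 178 to 291 CPM in spleen and 8987 to 18497 in tumor PMN-MDSC, and to 502 to 821 and 5663 to 27337 in M-MDSC, where the highest was 11015 without the library with almost no Ly6c2. The neutrophil markers summed to 41397 to 75328 CPM in spleen and 3165 to 10511 in tumor PMN-MDSC, and the part of both lists was not tested.

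In the spleen, both cell types held all 5 members, at different levels. Fcgr1 and Fcgr2b were higher in M-MDSC, Fcgr3 and Fcgr4 were higher in PMN-MDSC, and the groups were apart for all 5 members, as were 58.1% of all genes in untreated and 63.5% in treated mice. In untreated mice 4 of 5 members were called, where 64.4% of genes were, and in treated mice 4 of 5, where 61.2% were, so little is particular to the members in these counts. The stricter limits were passed by 2 members in each (23.2% and 21.2% of genes). Fcgr4 held 65.5 to 212 CPM in PMN-MDSC and 12.7 to 25.96 in M-MDSC, a log2 fold change of -2.55 ± 0.35 (M-MDSC over PMN-MDSC, SE; edgeR, adjusted p = 0.00020). For Fcgr3 it was -1.65 ± 0.20 (SE; edgeR, adjusted p = 9.7e-05), from 607 to 1219 CPM in PMN-MDSC to 182 to 279 in M-MDSC. Fcgr1 was 2.54 ± 0.46 and Fcgr2b 1.79 ± 0.35 higher in M-MDSC (SE; edgeR, adjusted p = 0.0011 and 0.0015), and Fcgr1 was 3.24 higher without the PMN-MDSC library rich in Ccr2. In treated mice the values were -2.82 ± 0.26 for Fcgr3, -1.77 ± 0.43 for Fcgr4, 1.998 ± 0.459 for Fcgr1 and 1.54 ± 0.24 for Fcgr2b (SE; edgeR, adjusted p = 0.00012, 0.0074, 0.0058 and 0.00095). Fcer1g differed by -0.30 ± 0.13 untreated and -0.43 ± 0.21 treated and was not called by edgeR (adjusted p = 0.069 and 0.11), but was by DESeq2 (adjusted p = 0.025 and 0.028), and by edgeR in untreated mice without the PMN-MDSC library at 395 CPM (-0.42, adjusted p = 0.035). The edgeR fit of all libraries called both too (-0.50 and -0.58, adjusted p = 0.040 and 0.022). Scaled to library totals, both differences turned to the other side, at 0.082 and 0.16.

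In the tumor fewer members were called between the cell types. The sorted cells there held 998 to 3819 CPM of summed neutrophil markers in untreated PMN-MDSC, against 20110 to 36814 in spleen PMN-MDSC, and their macrophage markers summed to more than in untreated tumor M-MDSC (10497 to 13798 against 4253 to 8864 CPM). The part of these markers in the values was not tested. In untreated mice 2 of 5 members were called, where 13% of genes were (0 under the stricter limits, with 1.65% of genes). Fcgr1 was higher in M-MDSC by 0.88 ± 0.17 (SE; edgeR, adjusted p = 0.0045), and Fcgr4 was lower by a log2 fold change of -0.90 ± 0.23 (SE; edgeR, adjusted p = 0.021). Both groups were apart for these 2 genes, as for 19.9% of all genes, with Fcgr4 at 29.5 to 79.4 CPM in M-MDSC and 97.8 to 123 in PMN-MDSC. When all libraries were fitted together both calls were lost (edgeR, adjusted p = 0.116 and 0.124), and Fcgr4 was lost in 3 of 8 fits, without the M-MDSC library at 59.1 CPM or the PMN-MDSC ones at 115 or 123 CPM (edgeR, highest adjusted p = 0.068). In treated mice 0 of 5 members were called, where 0.38% of genes were, or 0% under the stricter limits (edgeR; 1 member at an unadjusted p under 0.05; DESeq2 called 0). Fcgr4 then held 149.7 to 308 CPM in M-MDSC and 183 to 279.9 in PMN-MDSC. Fcgr3 was the 1 member whose groups were apart, against 14.6% of genes, with a log2 fold change of -0.58 ± 0.25 (SE; edgeR, adjusted p = 0.38).

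**Figure D4:**
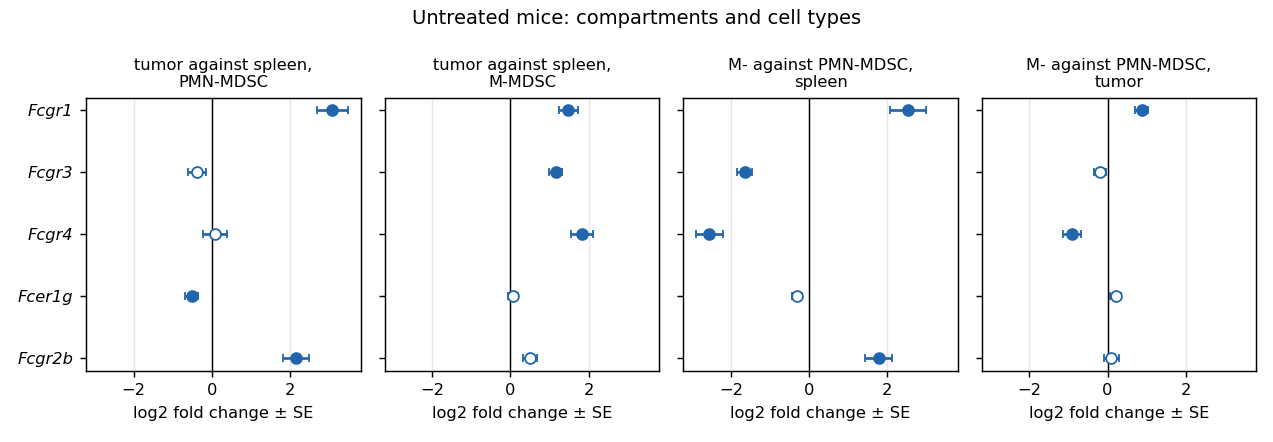
Log2 fold changes (edgeR, bars of 1 SE) in untreated mice between tumor and spleen for each cell type and between M-MDSC and PMN-MDSC in each compartment; filled points passed an adjusted p of 0.05. In the third panel Fcgr1 and Fcgr2b lie right of 0, at 2.54 and 1.79, and Fcgr3 and Fcgr4 left of it, at -1.65 and -2.55.

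Bulk tumor held little of any member. Means were 7.93 ± 1.61 CPM for Fcgr1, 14.8 ± 5.004 for Fcgr3, 7.35 ± 2.73 for Fcgr4, 8.99 ± 3.67 for Fcer1g and 54.2 ± 18.2 for Fcgr2b (SD, n = 4). All 5 were lower than in sorted cells of the same tumors, by log2 fold changes of -3.82 to -5.41 against PMN-MDSC and -3.14 to -5.39 against M-MDSC (edgeR, highest adjusted p = 1.7e-07 and 1.5e-05), where 69.5% and 69.2% of genes were called. All 5 were apart from both, as were 66.1% and 64.6% of genes, and all passed the stricter limits, as did 40.1% and 41.9%. The log2 difference was smallest for Fcgr2b against PMN-MDSC and for Fcgr4 against M-MDSC. Bulk tumor also holds other cells: its 4 epithelial tumor markers summed to 3540 to 5705 CPM, against 87.6 to 596 in tumor PMN-MDSC and 13.7 to 229 in tumor M-MDSC, and its 5 fibroblast markers to 816 to 1074 CPM, against 27.8 to 46.9 and 1.28 to 31.6. The macrophage markers summed to 810.1 to 1322 CPM in bulk tumor, and the part of these cells was not tested. Per exon length, Fcer1g (10.3 FPKM) and Fcgr2b (9.35 FPKM) were the highest members in bulk tumor.

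Some genes that work with these receptors also changed with treatment. The counts are read against the share of all genes called, which was 11.6% in spleen PMN-MDSC, 19.6% in spleen M-MDSC, 3.36% in tumor PMN-MDSC and 2.88% in tumor M-MDSC. Of 14 other Fc receptors, 3 to 5 passed the count filter in each treatment comparison. Fcgrt, the neonatal receptor that recycles IgG, fell in spleen PMN-MDSC by a log2 fold change of -3.58 ± 0.84 and in spleen M-MDSC by -2.08 ± 0.33 (SE; edgeR, adjusted p = 0.030 and 0.0022). Trim21, a cytosolic Fc receptor that binds antibody on incoming viruses, rose in PMN-MDSC of spleen by 2.03 ± 0.24 and of tumor by 1.06 ± 0.26 (SE; edgeR, adjusted p = 0.0030 and 0.047). Of 16 activating signaling genes, 1 rose and 1 fell in spleen PMN-MDSC, 3 rose and 1 fell in spleen M-MDSC, 1 rose in tumor PMN-MDSC and 0 moved in tumor M-MDSC. The median log2 fold change of the list was within 0.1 of 0 in each comparison, as was that of all genes. The adaptor Lcp2 rose in spleen M-MDSC by 0.74 ± 0.13 (SE; edgeR, adjusted p = 0.0043), and the PI3-kinase subunit gene Pik3r1 fell in spleen PMN-MDSC by a log2 fold change of -0.65 ± 0.16 (SE; edgeR, adjusted p = 0.035).

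Of 8 inhibitory signaling genes, 3 rose in spleen M-MDSC and 0 were called in the other populations (edgeR), where the shares of all genes were lower too. The docking proteins Dok1 and Dok2, which dampen tyrosine kinase signals, rose there by 0.67 ± 0.17 and 1.19 ± 0.31 (SE; edgeR, adjusted p = 0.020 and 0.024). The list had a median log2 fold change of 0.20 in spleen M-MDSC, against -0.01 for all genes. Of 10 adaptors and partners of the gamma chain, 4 to 6 were tested. Clec4e, which encodes Mincle, a lectin that signals through the gamma chain, rose in spleen PMN-MDSC by 1.19 ± 0.25 and in spleen M-MDSC by 2.83 ± 0.21 (SE; edgeR, adjusted p = 0.021 and 4.1e-05). Clec4n, which encodes Dectin-2, another partner of that chain, fell in spleen PMN-MDSC by a log2 fold change of -3.51 ± 0.51 (SE; edgeR, adjusted p = 0.0056). In tumor 0 of the 5 tested were called in either cell type.

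The genes whose mean levels followed those of each member most closely were found by Pearson's r of log2 levels over the 9 groups, among 9790 genes. This is a description with no test, as the groups share libraries' depth and the bulk tumor has the lowest mean of each member. For Fcgr1 these were Clptm1l, Npc2 and Tlr1 (r = 0.98 each, and 0.95 to 0.96 over the 8 sorted groups). For Fcgr2b they were Xist, P2ry6 and Ccl9 (0.98 to 0.99, and 0.97 to 0.98), and for Fcgr3 5430427O19Rik, Vamp3 and Fam219a (0.99 each, and 0.95 to 0.97). For Fcgr4 they were Ctsd, Gm12537 and Mdm2 (0.98 to 0.99, and 0.97 to 0.99). For Fcer1g they were Ptpn18, Coro1c and Rnf130 (0.99 each, and 0.83 to 0.86).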

How the data were processed

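Total RNA of 34 libraries was measured by stranded RNA-seq. The deposited values are raw gene counts, not normalized, with 1 column for each library. The reads carry no molecular identifiers, so depth covers counting error only. Per the methods of the study, reads were mapped to mm10 with ContextMap and BWA and counted by strand with featureCounts on Gencode v16. The processing notes of the submitters also name Subread 1.4.6-p3. Column names give cell type, organ, treatment and a running number, which was not used to match libraries to mice. The fits therefore do not model which libraries share a mouse. A treated tumor M-MDSC library with 10 counts was left out, leaving 34 of 35. GENCODE M21 (GRCm38) supplied symbols, coordinates and exon lengths and matched 53274 of 53379 identifiers.

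Each comparison was fitted on its own libraries with edgeR 4.0.16 (R 4.3.3; TMM, robust quasi-likelihood F-test, two-sided) on genes averaging 25 counts or more per library. P-values were adjusted by Benjamini-Hochberg over all genes tested and called under 0.05. Effects were compared by an interaction term. Libraries of a group are taken as separate mice, since the study gives 3 to 4 mice per group. CPM used TMM factors over all libraries, and FPKM divided CPM by exon length. Neither CPM nor FPKM was taken from the authors. The values of a signaling gene and an allele of the tumor line are not reported here. The fits were tested on simulated data. Alternatives were RLE and library total scaling, DESeq2 1.42.0, other filters, 1 fit over all libraries, a fit without robust estimates, the study's limits (adjusted p under 0.001 and 2-fold), and each library left out. The study applied its limits to DESeq2, whereas here they were applied to edgeR, so counts under them are not those of the study's procedure.

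The members and gene lists were chosen with earlier results of these data known. By rule, the text names all 5 members, at most 2 called genes of each other list in each treatment comparison (those with the smallest adjusted p), and 3 genes per member by likeness of pattern. Protein sequences were not used here.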

Additional observations from a re-analysis of the deposited data

Results flagged for a closer look

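In untreated spleen M-MDSC, 1 of 4 libraries held 25.956 CPM of Fcgr4 and the others 12.7 to 14.5, a gap above the critical value of Dixon's test. In the same group 1 library held 291.8 CPM of Fcer1g and the others 353 to 359. These were 2 of 35 groups of 4 libraries examined, and chance alone gives about 1 in 20. The effect of treatment on Fcgr3 differed between M-MDSC and PMN-MDSC of the spleen, with a log2 difference of -1.2902 (adjusted p = 0.023 from edgeR for the difference itself): treated M-MDSC held 111 to 171 CPM against 182 to 279 untreated, and treated PMN-MDSC 809 to 1448 against 607 to 1219. The part of the cell markers that moved in these groups was not tested.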

How the results depend on the processing

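No paired analysis was possible because the columns carry a running number and no mouse number that matches the labels, unless running order is used. That order was not used to match columns to mice. Libraries of the same mice were therefore fitted as unpaired between organs and cell types, and the effect of pairing was not tested. RLE scaling and a fit without robust estimates left each count of members called where it was, and all ratios kept their direction. Of 90 fold changes, 37 were called. Under the stricter limits 0 members were called in each treatment comparison, in treated M-MDSC between tumor and spleen, in untreated tumor between cell types and for the difference of effects in spleen, 1 in treated PMN-MDSC between tumor and spleen, and 2 in each comparison of spleen cell types. Without a filter 2 members were called for treatment in PMN-MDSC of spleen (1818 of 27640 genes) and 2 in those of tumor (864 of 29685). Such fits called 3 in treated M-MDSC between tumor and spleen (1972 of 27310) and 1 for spleen against tumor effects in M-MDSC (659 of 29825). DESeq2 called 3 members for treatment in spleen PMN-MDSC (1354 of 7261 genes), 2 in tumor PMN-MDSC (613 of 8308) and 2 in tumor M-MDSC (797 of 8360). In treated M-MDSC between tumor and spleen it called 3 (1132 of 9026 genes). With edgeR 844, 279, 241 and 530 of these genes were called, so DESeq2 called more genes of every kind. A fit of all libraries tested 9794 genes. For treatment it called 2 members in spleen PMN-MDSC (2356 genes) and 0 in tumor PMN-MDSC (331 genes). Between organs it called 4 in treated PMN-MDSC (6140 genes) and 3 in treated M-MDSC (1509 genes). Between cell types of untreated tumor it called 0 (810 genes). With 10 counts in every library 0 members were called for the difference of effects in spleen (513 of 6312 genes). The causes were not tested.

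Leaving out each library gave 0 to 2 members for treatment in spleen PMN-MDSC, 2 to 5 in spleen M-MDSC, 0 to 1 in tumor M-MDSC, 1 to 2 in untreated tumor between cell types and 0 to 1 for the difference in spleen. The signs that turned belong to fold changes that edgeR did not call with all libraries in. For treatment in tumor M-MDSC, Fcgr3 ran from -0.15 to 0.17 when each library was left out (-0.15 without the library that stands apart). Between tumor and spleen, Fcgr4 in untreated PMN-MDSC ran from -0.076 to 0.55, and Fcer1g in untreated M-MDSC from -0.015 to 0.11. Between cell types of the tumor, Fcgr2b ran from -0.031 to 0.23 untreated and from -0.26 to 0.32 treated, and Fcgr4 from -0.30 to 0.17 treated. For spleen against tumor effects in PMN-MDSC, Fcgr2b ran from -0.45 to 0.11, Fcgr3 from -0.072 to 0.33 and Fcer1g from -0.10 to 0.077. For M-MDSC against PMN-MDSC effects in tumor, Fcgr2b ran from -0.35 to 0.20 and Fcer1g from -0.093 to 0.11.

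Without the libraries that stand apart, which were chosen after seeing the data, Fcgr4 was -0.076 between tumor and spleen of untreated PMN-MDSC, Fcer1g -0.012 in treated M-MDSC, Fcgr2b -0.26 between treated tumor cell types, Fcgr2b 0.11 and Fcgr3 -0.018 for spleen against tumor effects in PMN-MDSC, Fcer1g 0.056 for those in M-MDSC, and Fcgr2b -0.35 and Fcer1g -0.093 for cell type effects in tumor. In a fit of all libraries Fcgr4 was -0.084 in the first of these and Fcer1g -0.0016 in the last. With 10 counts in every library Fcer1g was -0.0072 between tumor and spleen of untreated M-MDSC. Fcer1g was 0.039 under RLE and 0.038 under DESeq2 for spleen against tumor effects in PMN-MDSC, and -0.0056 and -0.0075 for cell type effects in tumor, where without a filter it was -0.020 and Fcgr2b -0.022.

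Scaling to library totals moved the median of all genes by over 0.1 in 12 of 18 comparisons (-0.31 to 0.58). Fcer1g then stood at -0.20 between tumor and spleen of untreated M-MDSC, 0.082 and 0.16 between cell types of untreated and treated spleen and 0.073 for the difference of effects in spleen. Fcgr4 stood at 0.024 between tumor and spleen of treated PMN-MDSC and 0.071 between treated tumor cell types, and Fcgr3 at -0.17 for spleen against tumor effects in PMN-MDSC. Mean CPM then was 70.4 for Fcgr2b, 786 for Fcgr3, 237 for Fcgr4 and 464 for Fcer1g in treated spleen PMN-MDSC, 392 for Fcer1g in untreated spleen PMN-MDSC, and 620.4 for Fcgr2b, 272 for Fcgr3 and 413 for Fcer1g in untreated spleen M-MDSC. In 9 comparisons the share of called genes that were higher moved by over 10 points. For treatment it went from 52.5% to 23.9% in spleen PMN-MDSC, 54.4% to 43.8% in spleen M-MDSC and 68.1% to 79.4% in tumor PMN-MDSC. For tumor against spleen it went from 55.2% to 28.7% in untreated M-MDSC and 52.6% to 74.0% in treated PMN-MDSC. For spleen cell types it went from 51.9% to 69.9% untreated and 53.0% to 74.3% treated. For differences of effects it went from 71.0% to 49.2% in M-MDSC between organs and 59.4% to 87.9% in spleen between cell types.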
